A study of Bos taurus with 15 samples.

Results

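The interferon tau transcripts of bovine (Bos taurus) blastocysts were followed through 3 groups of 5 poly(A) RNA libraries, all taken at day 7. The genes were chosen by name: of the 3 symbols listed (IFNT, IFNT2 and IFNT3), 2 had a row in the deposited table, IFNT and IFNT3, out of 17259 genes. Because close copies share reads that the counting divides between them, the counts of both rows were also summed for each library, and the sum is the main readout. No row is called IFNT2. In the ARS-UCD2.0 annotation of RefSeq, IFNT is a synonym of both IFNT2 and IFNT3, so the row IFNT cannot be tied to 1 copy, and differences between the rows are less certain than the sum.

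The in vivo group held blastocysts that were collected in vivo. The manual and automatic groups held blastocysts grown in SOF medium, a defined embryo culture medium, from zygotes whose cumulus cells had been stripped off by hand or by an automated procedure; stripping the cumulus is called denudation. Culture sets both in vitro groups apart from the in vivo group, so denudation and culture cannot be told apart in a comparison with in vivo, and only automatic against manual compares denudation within culture. The labels describe 5 blastocysts per group and do not say outright whether a library was 1 embryo or a pool, nor that libraries came from separate cultures or donors, so p-values measure only how these libraries spread, and that may be technical.

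Interferon tau is a type I interferon that ruminant embryos make in the trophectoderm, the outer cell layer of the blastocyst. It is secreted into the uterus, where it restrains the prostaglandin pulses that would end the life of the corpus luteum, and it is therefore known as the signal by which the mother recognises pregnancy. A cluster of closely related intronless genes encodes it. It binds the receptor chains IFNAR1 and IFNAR2, which act through the kinases JAK1 and TYK2 on STAT2 and IRF9, among others, and so induce the interferon-stimulated genes. Its promoters are known to answer to ETS2 with AP-1 partners and to trophectoderm factors such as CDX2 and DLX3.

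Libraries held 17963944 to 41974214 counts. In 5 of them, called low-detection libraries below, 6977 to 8547 genes reached 10 counts, against 9900 to 12611 in the other 10. These 5 were in vivo 2, in vivo 4, manual 2, automatic 2 and automatic 4. The mitochondrial genes found by name took 8.18% to 14.4% of their counts, against 3.26% to 9.99% in the other 10. The 2 ranges overlapped, and MT-CO1, MT-CO3, MT-ND1 and MT-ND5 were not among the genes found. Levels are in CPM, a library's counts scaled to a common total with TMM factors (a trimmed mean of ratios between libraries). Fold changes come from 1 quasi-likelihood fit of edgeR to all 15 libraries and 11578 genes, adjusted for all of those genes by the Benjamini-Hochberg method, and a gene is called at an adjusted p under 0.05.

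Interferon tau was found in every library, at levels that spread widely within each group. The summed transcript averaged 173 ± 101 CPM after manual denudation, 50.8 ± 53.6 CPM after automatic denudation and 32.8 ± 40.7 CPM in vivo (SD, n = 5 each). The order manual, automatic, in vivo therefore held for the means, but no neighbours in that order, nor manual and in vivo, differed past the adjusted threshold. Manual libraries were the most alike, with a 6.20-fold range between the lowest and the highest, while the automatic libraries ranged over 26.2-fold and the in vivo libraries over 81.9-fold.

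In vivo, the sum reached 39.0, 1.22, 20.1, 3.43 and 100.3 CPM in libraries 1 to 5. After manual denudation it reached 52.1, 214, 323, 131 and 147 CPM in libraries 1 to 5. After automatic denudation it reached 24.8, 125, 89.8, 4.76 and 9.66 CPM in the same order. The 4 highest of the 15 libraries were manual ones, in vivo 5, automatic 2 and automatic 3 stood above the lowest manual library, and the 3 lowest libraries were in vivo 2, in vivo 4 and automatic 4. These 3 are low-detection libraries, but so are manual 2, second of the 15, and automatic 2, the highest of its group, so low-detection libraries lay at both ends of the range.

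**Figure D1:**
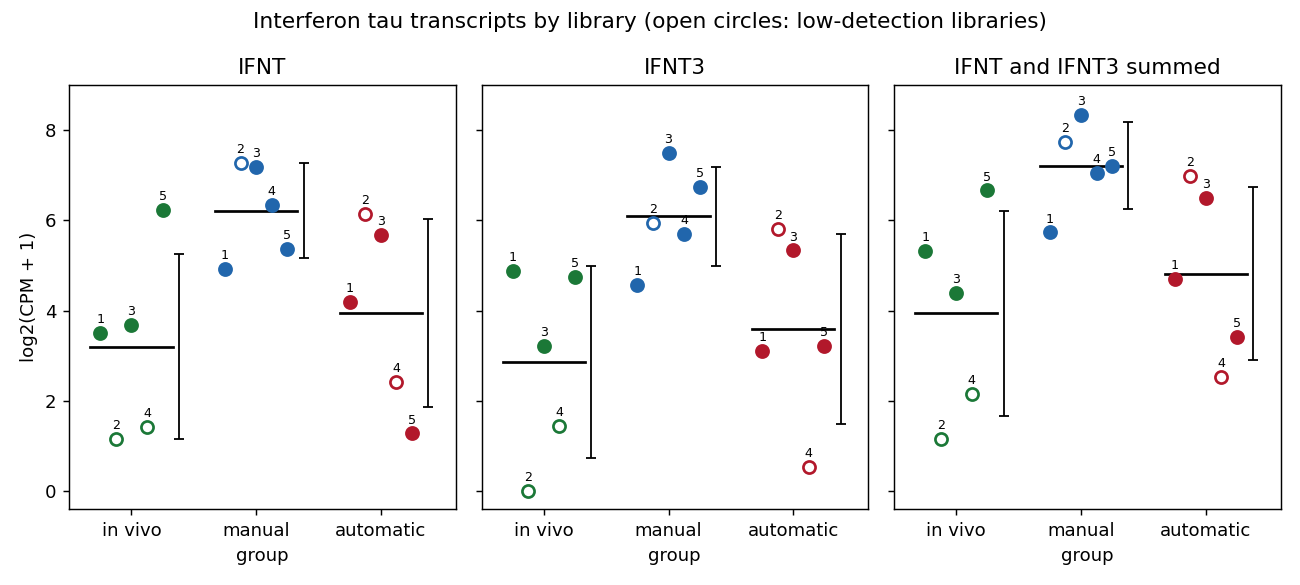
Level of IFNT, IFNT3 and their sum as log2(CPM + 1) on the vertical axis, by group on the horizontal axis. Each point is 1 library with its replicate number, open circles are low-detection libraries, the line is the group mean and the bar beside it 1 SD (n = 5). The manual libraries sit together near the top, while the in vivo and automatic libraries spread over most of the range.

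The spread within groups was large even beside other genes of like level. Pooled over the groups, the within-group SD of log2(CPM + 1) was 1.80 for the sum. The median was 1.15 over the 2595 genes whose mean CPM lay within 2-fold of it, and 84.2% of those genes had a smaller SD. For IFNT and IFNT3 taken singly the SD was 1.80 and 1.84, larger than in 73.2% of genes of like level in each case.

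The row IFNT held 457, 16, 578, 37 and 2031 counts in the in vivo libraries 1 to 5, 954, 3273, 4576, 2544 and 768 in the manual libraries and 552, 1787, 2087, 78 and 53 in the automatic libraries. The mean in CPM was 19.9 ± 30.9 in vivo, 89.6 ± 57.6 after manual and 28.6 ± 30.1 after automatic denudation (SD, n = 5). A single in vivo library, in vivo 5 at 74.5 CPM, carried most of its group's mean, since the other 4 lay between 1.22 and 11.8 CPM. Those 4 were below the lowest manual library, manual 1 at 29.3 CPM, and in vivo 5 was inside the manual range.

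The row IFNT3 held 1263, 0, 405, 38 and 704 counts in vivo, 743, 1288, 5639, 1626 and 2025 after manual denudation and 243, 1416, 1625, 8 and 306 after automatic denudation, each in the order of libraries 1 to 5. Its mean level was 12.9 ± 13.5 CPM for in vivo, 83.8 ± 60.8 CPM for manual and 22.1 ± 23.8 CPM for automatic (SD, n = 5). In vivo 2 was the only library without a count in a member's row; 0 counts there allow up to 3 counts, or 0.230 CPM, by counting error alone. In vivo 1 and in vivo 5 reached 28.6 and 25.8 CPM and overlapped the manual range at its lower end, manual 1 at 22.8 CPM.

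Both rows rose and fell together between libraries. On the scale of log2(CPM + 1), Pearson's r between IFNT and IFNT3 was 0.87 over 15 libraries and 0.76 over the 10 without low detection, as a description, since the rows share reads and the libraries share depth and group. The division between the rows differed from library to library. IFNT3 took 38.2 ± 27.5% of the summed counts in vivo, 47.7 ± 16.9% after manual and 42.6 ± 27.7% after automatic denudation (SD, n = 5), from 0% in in vivo 2 to 85.2% in automatic 5. It was the larger row in 5 of 15 libraries, and groups overlapped throughout. These are shares of counts that the counting assigned, not of molecules, and how much of the variation lies in that assignment was not tested.

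**Figure D2:**
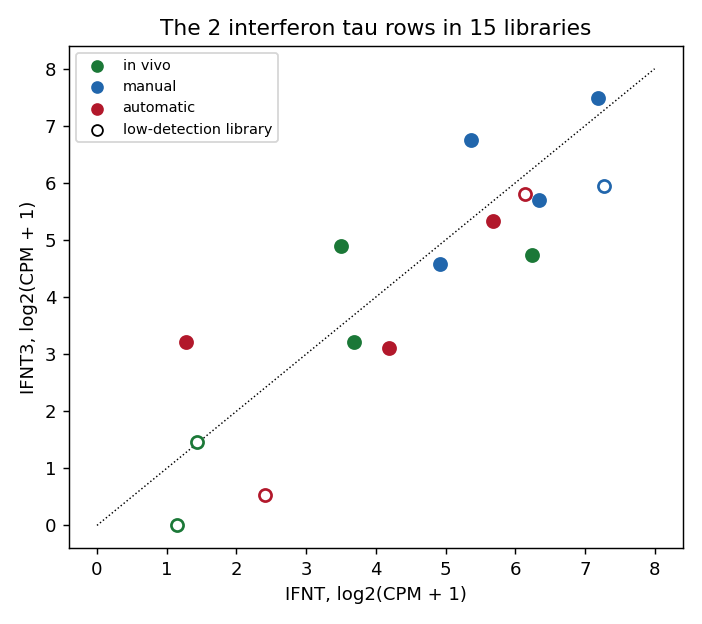
Each point is 1 library, with IFNT on the horizontal and IFNT3 on the vertical axis, both as log2(CPM + 1). Colours mark the groups, open circles the low-detection libraries, and the dotted line equal levels. Libraries run along the line from in vivo 2 at the bottom to manual 3 at the top, with automatic 5 well above it, where IFNT3 took 85.2% of the counts.

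Other interferon rows held few counts. The rows IFN-TAU and IFN-tau-c1, further interferon tau entries under other names, together held 437 counts in 6 libraries, 1.16% of all interferon tau counts, and 257 of these were IFN-tau-c1 counts in manual 4. IFNW1, an interferon omega gene, and IFNK, interferon kappa, each had counts in 4 libraries, with at most 86 and 110 counts in a library. IFNAC and IFNB3, of the interferon alpha and beta families, were at 0 in all 15. None of these 6 rows passed the filter on low counts, so none was tested.

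Automatic against manual denudation is the comparison of denudation within culture. For the sum, 4 of 5 manual libraries exceeded every automatic library and 3 of 5 automatic libraries fell short of every manual one, while 0% of all 11578 genes tested were called in this comparison (171 had an unadjusted p under 0.05, and DESeq2 and limma-voom called 9 and 0 genes). The summed transcript differed by log2 -1.77 ± 0.99 (SE, 95% interval -3.84 to 0.30, edgeR adjusted p = 0.9999). The interval reached from far lower to slightly higher levels after automatic denudation, so the comparison does not show that the groups were alike. IFNT differed by -1.65 ± 1.10 and IFNT3 by -1.92 ± 1.23 (SE, edgeR adjusted p = 0.9999 for each), so both rows pointed the same way. Without the low-detection libraries the sum differed by -1.95 ± 0.80, with an unadjusted p = 0.0304 by edgeR and an adjusted p of 1.

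The next comparison set all 10 cultured libraries against the 5 collected in vivo. The sum differed by log2 1.52 ± 0.89 (SE, 95% interval -0.36 to 3.39, edgeR adjusted p = 0.943), with higher means after culture. IFNT differed by 1.35 ± 0.99 and IFNT3 by 1.74 ± 1.13 (SE, edgeR adjusted p of 0.999 and 0.986). In this comparison 0.0173% of genes were called, and no member was among them. Without the 5 low-detection libraries, 2 of them in vivo and 3 cultured, the sum differed by 0.63 ± 0.70. Without in vivo 5, the highest in vivo library, it differed by 2.55 (unadjusted p = 0.0183 by edgeR).

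Set singly against in vivo, the cultured groups lay at different distances; these comparisons share the in vivo libraries with each other and with the comparison before. After manual denudation the sum differed from in vivo by log2 2.40 ± 1.01 (SE, 95% interval 0.28 to 4.52), with an unadjusted p = 0.0284 and an adjusted p = 0.9995 by edgeR. In that comparison 0% of genes were called by edgeR and 392 of 11578 (3.39%) had an unadjusted p under 0.05, with 44 called by DESeq2 and 1 by limma-voom; the sum was called by none of these tools. IFNT differed by 2.17 ± 1.12 and IFNT3 by 2.70 ± 1.27. Of the manual libraries 4 of 5 lay above the highest in vivo library, in vivo 5, and 4 of 5 in vivo libraries lay below the lowest manual one. Without the low-detection libraries the difference was 1.61 ± 0.79.

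After automatic denudation the sum differed from in vivo by log2 0.63 ± 0.96 (SE, 95% interval -1.39 to 2.65, edgeR adjusted p = 0.9997), where 0.0173% of genes were called. IFNT differed by 0.52 ± 1.07 and IFNT3 by 0.78 ± 1.20. The direction was not stable: without the low-detection libraries the sum differed by -0.34, IFNT by -0.46 and IFNT3 by -0.17, and without automatic 2 the sum was at -0.01. Of the automatic libraries 1 of 5 lay above the highest in vivo library and 0 below the lowest.

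**Figure D3:**
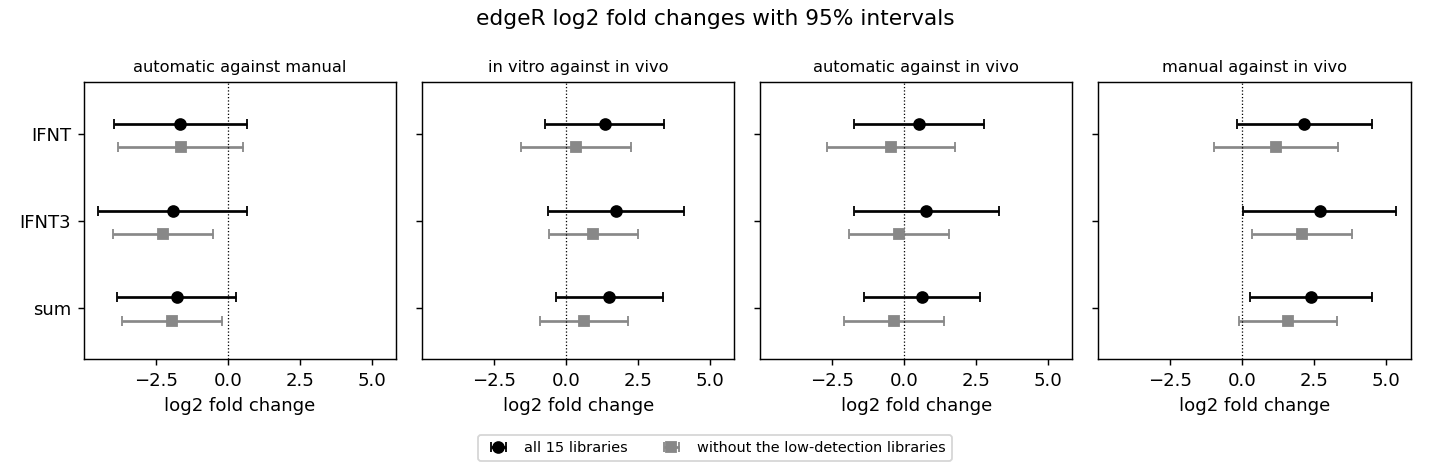
The log2 fold change from edgeR is on the horizontal axis of each panel, for IFNT, IFNT3 and their sum from top to bottom, with 95% intervals. Black circles use all 15 libraries and grey squares leave out the low-detection libraries. The estimates of automatic against manual lie below 0 and those of manual against in vivo above 0 in both fits, while those of automatic against in vivo lie on either side of 0. With all 15 libraries the intervals of automatic against manual cross 0 for IFNT, IFNT3 and the sum.

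The trophectoderm keratins, which mark the cells that make interferon tau, did not follow it across all 3 groups, since their means were highest in vivo. Within culture their means were lower after automatic than after manual denudation, as for interferon tau. KRT8 averaged 13557 ± 4907 CPM for in vivo, 8634 ± 6698 CPM for manual and 5824 ± 2841 CPM for automatic (SD, n = 5). KRT18 averaged 7245 ± 2081, 5769 ± 3601 and 2571 ± 804 CPM in the same order of groups (SD, n = 5). Across the 15 libraries Spearman's rho with the sum was -0.12 for KRT8 and 0.18 for KRT18, as descriptions. On the log2 scale the ratio of the sum to KRT18 was -8.84 ± 2.14 in vivo, -5.11 ± 0.68 after manual and -6.44 ± 1.65 after automatic denudation (SD, n = 5). Without the low-detection libraries the same ratios were -7.36 ± 0.99, -5.34 ± 0.54 and -6.58 ± 1.54 (n = 3, 4 and 3), so the manual mean was the highest either way. Automatic and manual overlapped, since the highest automatic library reached -4.51, and -5.19 without the low-detection libraries, above the manual mean in each case. The highest in vivo library, at -6.36, lay below the lowest manual one, at -6.12, with or without those libraries. How many genes part these groups in the same way was not worked out. In bulk samples, fewer trophectoderm cells and less RNA per cell cannot be told apart.

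Trophectoderm markers as a list were well represented: of 24 listed, 23 were in the table and 21 passed the filter, and 16 to 23 had 10 or more counts in each in vivo library, 18 to 21 in each manual and 15 to 20 in each automatic library. By edgeR over all genes 0 of the 21 were called in any of the 4 comparisons, where at most 0.0173% of all genes tested were called. Limma-voom with quality weights called 4 of them in vitro against in vivo and 4 in automatic against in vivo, where it called 0.924% and 0.821% of all genes. An unadjusted p under 0.05 in edgeR was found for 6, 8, 11 and 2 of the 21 (28.6%, 38.1%, 52.4% and 9.52%) in automatic against manual and then in vitro, automatic and manual against in vivo. The shares over all genes tested were 1.48%, 6.13%, 5.36% and 3.39%. Their median log2 fold change was -0.57 for automatic against manual, -0.91 for in vitro against in vivo, -1.22 for automatic against in vivo and -0.32 for manual against in vivo, against medians of -0.05, -0.04, -0.06 and -0.02 over all genes tested. The summed level of the list was 16875 to 33622 CPM for in vivo, 9214 to 36794 CPM for manual and 5912 to 15870 CPM for automatic. The log2 fold change was below 0 for 16, 15, 15 and 16 of the 21, in the order of the medians. It was above 0 for the other 5, 6, 6 and 5. KRT19, a further keratin, averaged 1855, 1014 and 264 CPM in the order in vivo, manual and automatic. PTGS2, a prostaglandin synthase of the trophectoderm, averaged 1228, 1051 and 506 CPM. GATA3 and TEAD4, also on this list, had another order, with manual highest and in vivo lowest.

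Transcription factors that act on the interferon tau promoters differed in the order of their group means. GATA3 and TEAD4, given below, had the order of interferon tau, with manual highest and in vivo lowest. ETS2, DLX3, CDX2, GATA2, FOS and POU5F1 did not. ETS2, the main activator, reached 5.62, 0, 7.24, 11.98 and 9.28 CPM in vivo, 3.62, 13.1, 0, 0.597 and 1.37 CPM in manual and 3.84, 23.6, 11.7, 51.0 and 8.45 CPM in automatic, each for libraries 1 to 5. Manual 3, the library with the most interferon tau, had 0 ETS2 counts. Automatic 4, with among the least, had the highest ETS2 level. Other libraries went together: in vivo 2, with the least interferon tau, had 0 ETS2 counts. Manual 2 and automatic 2, at 13.1 and 23.6 CPM of ETS2, held 214 and 125 CPM of interferon tau. All of these but manual 3 are low-detection libraries. Spearman's rho of ETS2 with the sum was -0.15 over the 15 libraries, as a description. DLX3, a homeobox factor of the trophectoderm, averaged 39.4 ± 52.2 CPM for in vivo, 6.16 ± 6.15 CPM for manual and 4.79 ± 5.37 CPM for automatic (SD, n = 5), where in vivo 2 alone reached 132 CPM. CDX2 averaged 9.78, 7.84 and 4.20 CPM in the same order.

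GATA2, a zinc finger factor of the trophectoderm, was even in vivo at 81.2 ± 6.69 CPM and spread over 15.0 to 75.8 CPM in the manual and 7.56 to 103 CPM in the automatic group. GATA3 averaged 61.5, 97.3 and 73.8 CPM in vivo, after manual and after automatic denudation, and TEAD4, the factor through which the Hippo pathway acts, 49.8, 70.9 and 64.2 CPM. FOS, an AP-1 subunit, averaged 104, 44.2 and 22.9 CPM, and POU5F1, a pluripotency factor known to oppose ETS2, 208, 288 and 319 CPM. The groups overlapped in all of these factors. Of 17 listed regulators 16 passed the filter and 0 were called in any comparison by edgeR, where 0%, 0.0173%, 0.0173% and 0% of all genes tested were called. Median log2 fold changes were -0.11, 0.40, 0.42 and 0.36, against -0.05, -0.04, -0.06 and -0.02 over all genes tested. All these values run in the order automatic against manual, in vitro against in vivo, automatic against in vivo and manual against in vivo.

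Receptors and kinases of growth factors known to raise interferon tau gave a like picture. Of 13 listed 12 passed the filter and 0 were called by edgeR in any comparison, where at most 0.0173% of all genes tested were called. Medians were -0.09, -0.42, -0.47 and 0.16 in the order just given, against -0.05, -0.04, -0.06 and -0.02 over all genes tested. FGFR4, a fibroblast growth factor receptor, averaged 96.5, 64.6 and 72.2 CPM in vivo, after manual and after automatic denudation. PDGFRA, a platelet-derived growth factor receptor that the hypoblast also carries, averaged 75.7, 94.6 and 106 CPM, and the kinase MAP2K1 averaged 79.4, 64.8 and 57.3 CPM.

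The receptor for interferon tau was barely represented in these embryos. IFNAR1 averaged 1.02 CPM for in vivo, 2.99 CPM for manual and 3.81 CPM for automatic. It was at 0 in 4 of 15 libraries and reached its highest level, 14.8 CPM, in manual 1. IFNAR2 had counts in 5 of 15 libraries, with at most 34 counts, in automatic 4, and was too low to be tested. Downstream, JAK1 averaged 60.1, 29.5 and 46.2 CPM, TYK2 23.0, 4.55 and 5.09 CPM and STAT2 18.4, 20.4 and 18.2 CPM in vivo, after manual and after automatic denudation. Of 11 listed genes of the receptor path 10 passed the filter and 0 were called by edgeR, where at most 0.0173% of all genes tested were called. Medians were 0.03, 0.75, 0.55 and 0.88 in the order of comparisons above, against -0.05, -0.04, -0.06 and -0.02 over all genes tested.

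The interferon-stimulated genes best known as markers of the response differed in how many libraries held their counts: 2 of 15 for ISG15, 4 for MX2 and 8 for MX1. ISG15, a ubiquitin-like protein that is a classic marker of the response to interferon tau in the endometrium, had 149 counts in manual 1, 245 in manual 3 and 0 in the other 13 libraries. MX1, an antiviral GTPase, reached 45.1 CPM in manual 1 and 60.4 CPM in manual 3, at most 11.01 CPM elsewhere, and was at 0 in 7 libraries. MX2, its relative, reached 8.82 CPM in manual 1 and 8.42 CPM in automatic 5, and at most 0.471 CPM elsewhere. IFI6, a small interferon-induced membrane protein named here after its values were seen, reached 54.8, 22.9 and 172 CPM in manual 1, 2 and 3 and at most 1.98 CPM in any other library.

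Manual 3 had the most interferon tau of all libraries at 323 CPM, but manual 1 had the least of the manual libraries at 52.1 CPM, so the level of interferon tau and these response genes did not rank the manual libraries alike. Manual 5, with 147 CPM of interferon tau, had 0 counts of ISG15, MX1, MX2 and IFI6. The most abundant members of the response list behaved otherwise, with counts spread over nearly all libraries. LGALS3BP, a secreted galectin ligand, averaged 14.8, 61.0 and 35.5 CPM in vivo, after manual and after automatic denudation. IRF7, a transcription factor of the interferon system, averaged 20.3, 36.0 and 44.6 CPM. IFI35 averaged 36.5, 18.2 and 52.7 CPM, and TRIM21, an intracellular antibody receptor, 16.7, 23.0 and 52.2 CPM. Over the 15 libraries their Spearman's rho with the sum was 0.52, 0.65, -0.30 and 0.18, in the order given, as descriptions.

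Of 52 interferon-stimulated genes listed, 45 were in the table and 29 passed the filter. By edgeR over all genes 0 of the 29 were called in any comparison, where at most 0.0173% of all genes tested were called. Medians were -0.78 for automatic against manual, with 17 of 29 below 0, and 0.81, 0.51 and 0.46 for in vitro, automatic and manual against in vivo. Over all genes tested the medians were -0.05, -0.04, -0.06 and -0.02 in the same order. An unadjusted p under 0.05 was found for 1, 1, 1 and 4 of the 29 in those comparisons, or 3.45%, 3.45%, 3.45% and 13.8%, against 1.48%, 6.13%, 5.36% and 3.39% of all genes tested.

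Other tools called more genes over the whole table, except limma-voom in automatic against manual, and none of them called IFNT, IFNT3 or the sum. Taking automatic against manual first, then in vitro, automatic and manual each against in vivo, DESeq2 called 0.0794%, 0.783%, 0.768% and 0.388% of all genes, and limma-voom called 0%, 0.13%, 0.0777% and 0.00864%. With quality weights limma-voom called 0.00864%, 0.924%, 0.821% and 0.0173%, and edgeR without the low-detection libraries 0.00811%, 0.0568%, 0.073% and 0.0243%. Interferon-stimulated genes were called by DESeq2 alone among these, with 1 of the list in each comparison but automatic against in vivo.

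**Figure D4:**
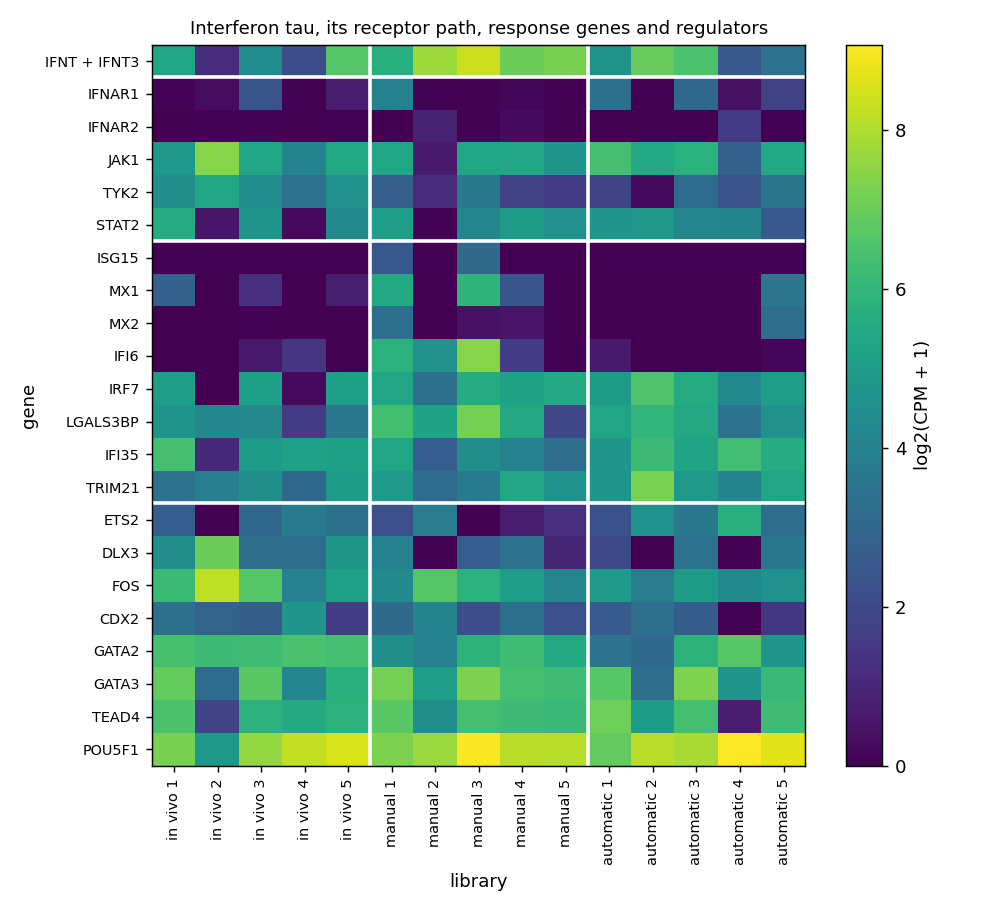
Each row is a gene and each column a library, and colour gives log2(CPM + 1). From top to bottom the blocks are summed interferon tau, the receptor and its signalling proteins, interferon-stimulated genes, and transcription factors. ISG15, MX1 and IFI6 stand out in manual 1 and manual 3, while IFNAR1 and IFNAR2 are dark in most libraries.

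Markers of other cell types were given for the same libraries, and their part in the interferon tau levels was not tested. Of 14 epiblast markers 12 passed the filter, with a summed level of 935 to 1560 CPM in vivo, 540.3 to 1010 CPM in manual and 799 to 1402 CPM in automatic, led by POU5F1, DPPA4, NANOG and ESRRB. Of 11 hypoblast markers 9 passed, at 1504 to 5124, 1731 to 3364 and 1611 to 5390 CPM, led by FN1, GATA6, PDGFRA and COL4A1. The lists for cells from outside the embryo had lower sums, and whether such cells were present was not tested. Few genes carried these sums: over all 15 libraries HAS2 and PTX3, on the cumulus list, held 104 and 5 counts, and CD3E, on the leukocyte list, 94. Cumulus and granulosa markers (5 of 14 passed, led by CYP11A1, STAR, FSHR and CYP19A1, with FOXL2 and PTGER2 at 0 throughout) summed to 60.5 to 318, 56.0 to 178 and 24.8 to 47.1 CPM in vivo, after manual and after automatic denudation.

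Leukocyte markers (6 of 12 passed, led by CD3D, CD68, CD74 and CSF1R) summed to 23.9 to 144, 26.3 to 62.9 and 15.4 to 44.9 CPM in the same order. The pan-leukocyte gene PTPRC had 0 counts in all 15 libraries. Markers of uterine or oviductal epithelium (4 of 10 passed, led by MUC1, PAX8, SLPI and UPK1A) summed to 0.0915 to 44.3, 9.05 to 103.5 and 14.9 to 45.8 CPM. By edgeR 0 genes of these 5 lists of other cell types were called in any of the 4 comparisons, where at most 0.0173% of all genes tested were called. In automatic against manual and then in vitro, automatic and manual against in vivo, 1, 3, 3 and 3 of 12 epiblast markers had an unadjusted p under 0.05. The shares over all genes tested were 1.48%, 6.13%, 5.36% and 3.39%. For cumulus markers it was 1, 1, 1 and 0 of 5, for leukocyte markers 0, 1, 0 and 1 of 6, and for the other lists 0.

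The genes whose level was most like that of interferon tau were found by Spearman's rho of CPM over the 15 libraries, among 8615 genes with a mean of at least 5 CPM. MYL7, a myosin light chain best known from the atrium of the heart, came first with a rho of 0.94 (0.89 over the 10 libraries without low detection). MYL7 averaged 2.13 ± 2.43 CPM for in vivo, 22.7 ± 11.1 CPM for manual and 4.32 ± 5.05 CPM for automatic (SD, n = 5). The order of group means was that of interferon tau, as in the genes that follow. Choosing genes by their correlation with the sum favours that order, so it adds nothing to the correlation. YPEL3 followed with a rho of 0.89, UFL1, a ligase that attaches the modifier UFM1, with 0.88, ELOVL4, an elongase of very long fatty acids, with 0.85, LRRC24 with 0.85 and FBXO8, an F-box protein, with 0.84. Over the 10 libraries without low detection these 5 lay between 0.67 and 0.81. The highest of 8615 correlations over 15 libraries, which share groups and depth, are a description of these libraries.

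**Figure D5:**
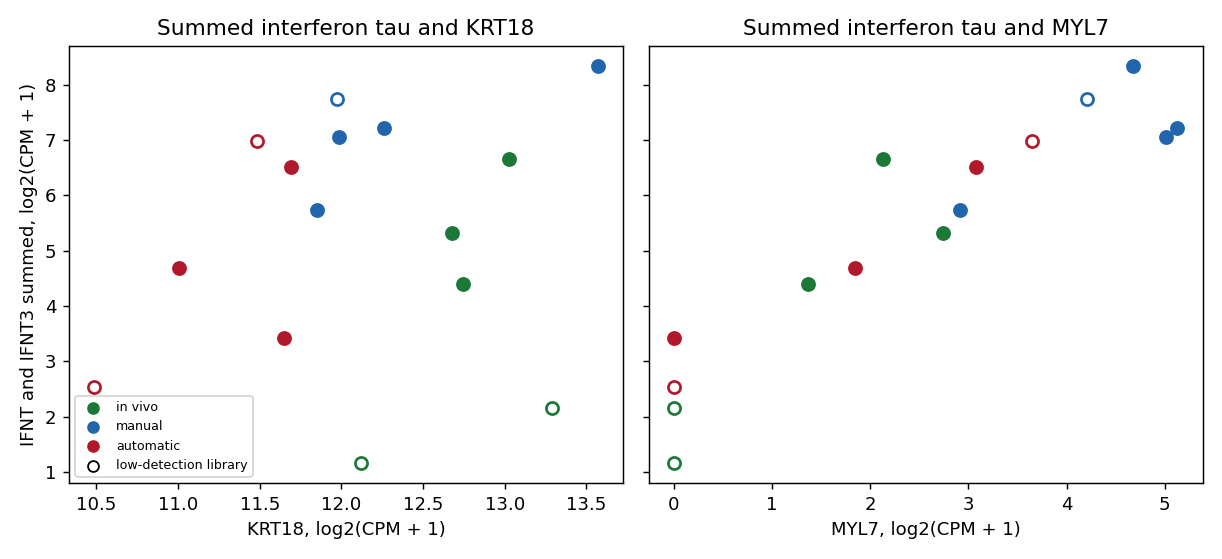
Summed interferon tau as log2(CPM + 1) on the vertical axis against KRT18 (left) and MYL7 (right) as log2(CPM + 1) on the horizontal axis, with 1 point per library, coloured by group and open for low-detection libraries. The points scatter against KRT18 (rho 0.18) and run along a rising line against MYL7 (rho 0.94).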

How the data were processed

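For the 15 libraries the authors deposited estimated counts by gene in 1 table, as whole numbers that sum to a different total in each library. Per the submitters' processing notes the tools were FastQC, fastp and kallisto, with no version or role given; kallisto estimates counts, so the values were treated as estimated counts and rounded, which changed 0 values. Neither the transcript set nor the build is given in the sources used here, and coordinates are left out. Columns were matched to samples by library names; 1 line without a gene name held 0 counts and was left out.

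All 15 libraries entered 1 fit (R 4.3.3, edgeR 4.0.16, robust estimateDisp and glmQLFit, glmQLFTest, TMM, filterByExpr) with a mean per group. For the sum, the rows IFNT and IFNT3 were replaced by their total and the fit repeated. SE was taken as the absolute log2 fold change over the root of its F statistic. Alternatives used limma 3.58.1, DESeq2 1.42.0 and exact permutation of log2(CPM + 1) in scipy 1.17.1. The fit was tested on simulated counts. Members and lists were chosen with earlier results of these data known. The rule for named genes took every member, 15 fixed genes, and from each list the called members and up to 4 of the highest mean CPM; IFI6, UBA7, VGLL1, PAG2, CRIPTO and NODAL were added after their values were seen, as was the count of genes of like level. Correlations, shares and ratios are descriptions. Same-numbered libraries were not treated as pairs. The planned display of sequences is not given here. Some genes that the rule took are not reported here.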

Additional observations from a re-analysis of the deposited data

Results flagged for a closer look

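In vivo 5 stood apart from its group in IFNT, at 74.5 CPM, where the other 4 in vivo libraries lay between 1.22 and 11.8 CPM; its distance to the nearest of them was 0.855 of the group's range, above the limit of 0.710 for 5 samples. The ratio was taken on CPM and not on the log2 scale. Its limit flags about 1 in 20 groups of this size only where values follow a normal distribution, which was not tested. In all, 9 groups (3 for each of IFNT, IFNT3 and the sum) were looked at, and they are not independent, since the sum holds both rows. Without in vivo 5, IFNT after manual denudation differed from in vivo by log2 3.82 (unadjusted p = 0.00465 and adjusted p = 0.99998 by edgeR). In IFNT3 the same library, at 25.8 CPM, lay below in vivo 1 at 28.6 CPM and was not apart.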

How the results depend on the processing

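No alternative gave an adjusted p under 0.05 for IFNT, IFNT3 or their sum: the smallest over the alternatives of the sum was 0.114 for automatic against manual, 0.153 for in vitro against in vivo, 0.579 for automatic against in vivo and 0.0952 for manual against in vivo, all from exact 2-sided permutation of log2(CPM + 1) adjusted over 12 tests. The first, second and last of these comparisons kept their direction under every alternative run. Leaving out 1 library at a time moved the sum from -2.41 to -1.41, 1.20 to 2.55, -0.0074 to 1.68 and 2.04 to 3.43 in the 4 comparisons in that order, and IFNT in automatic against in vivo from -0.092 to 2.20; both lower ends in automatic against in vivo came without automatic 2. Automatic against in vivo also turned negative without the low-detection libraries (sum -0.34, IFNT -0.46, IFNT3 -0.17), and with these left out and scaling by library size alone, an alternative chosen after seeing the data (sum -0.16, IFNT -0.27, IFNT3 -0.00082); the cause was not tested. Scaling by library size alone moved the median of all genes to 0.10, 0.12 and 0.10 in the comparisons of in vitro, automatic and manual with in vivo.

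Whether replicate numbers pair libraries was not tested. All 15 same-numbered pairs correlated positively, from 0.0014 to 0.38, and 8 of them above 0.1. Of 15 libraries 8 correlated best with their own number, and the number to be had without pairing was not worked out. These values therefore do not show that same-numbered libraries are unrelated. With a replicate block the sum differed by -2.24, 1.60, 0.48 and 2.72, and the block moved the genes called from 0, 2, 2 and 0 to 0, 8, 7 and 1. Genes called over the whole table in the 4 comparisons were 9, 87, 87 and 44 by DESeq2, 0, 15, 9 and 1 by limma-voom, 1, 107, 95 and 2 with quality weights, 1, 7, 9 and 3 without the low-detection libraries and 0, 0, 0 and 0 with library size alone. List members called rose from 0 as follows. Interferon-stimulated genes had 1 by DESeq2 in automatic against manual (IFI6), in vitro against in vivo (UBA7) and manual against in vivo (UBA7). Trophectoderm markers in vitro against in vivo had 1 by DESeq2, 1 by limma-voom, 4 with quality weights (KRT18, KRT19, PAG2 and VGLL1) and 1 without the low-detection libraries, with or without TMM; against in vivo, automatic had 2, 4 and 1 by DESeq2, quality weights and both fits without those libraries, and manual 1 by DESeq2. Epiblast markers had 1, 2 and 3 in vitro against in vivo and 2, 1 and 3 in automatic against in vivo, by DESeq2, limma-voom and quality weights, all from CRIPTO, NANOG and NODAL. Cumulus markers had 1 by DESeq2 in automatic against in vivo (CYP11A1). For IFNT3 in in vivo 2, 0 counts allow up to 0.230 CPM by counting error alone.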
